A study of Sus scrofa with 4 samples.

Results

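Muscle RNA of Diannan Small Ear (DSP) and Landrace (LL) pigs was compared with that of Tibetan (TP) and Yorkshire (YY) pigs. The series profiled the longissimus dorsi, the long muscle of the back, by RNA sequencing in 4 breeds with 1 library each, with the stated subject of growth and fat deposition. DSP and TP are labelled indigenous Chinese breeds and LL and YY introduced breeds, so each side of the comparison held 1 breed of each type. The pairing was chosen by the measured expression values, after those values had been seen. Differences between the sides are therefore described library by library and carry no test. The breed and its type are the only traits that the labels give for the pigs. The number of animals in a library and their sex, age, feeding and genotype are not given, and no treatment is named. With no statement that libraries came from several animals, breeds were the only replicates.

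Expression was deposited as FPKM, a level scaled to transcript length and to the mapped fragments of the library. Of 18208 genes in the table, 11507 had a mean of at least 1 FPKM over the 4 libraries and a locus of at least 300 bp, and these were analysed. A side difference is the mean of log2(FPKM + 1) in DSP and LL minus that in TP and YY, so that low levels are drawn toward 0. The libraries of the 2 sides did not overlap in 6143 genes, which is 53.4% of those analysed. Of these, 3645 (31.7%) were higher in DSP and LL and 2498 (21.7%) were lower. A gene was called separated where both libraries of a side lay at least 2-fold beyond both libraries of the other on FPKM + 1. Separated genes numbered 443 higher in DSP and LL, or 3.85%, and 357 lower, or 3.1%. The gap reached 4-fold in 99 of the higher and 37 of the lower genes. Because these counts come from the values that chose the pairing, they describe the libraries and support no inference.

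In skeletal muscle a small number of abundant transcripts, those of the sarcomere, of glycolysis and of the mitochondrial genome, make up much of the RNA. Transcripts for ribosomal proteins and for the small subunits of the respiratory chain are typically short, abundant and expressed together as groups. Chromatin regulators, receptors and giant scaffold proteins are typically encoded by long loci at lower levels. IGF2, a fetal growth factor expressed from the paternal allele, and H-FABP, the heart and muscle carrier of fatty acids also written FABP3, are established subjects of pig growth and fat research.

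Muscle markers stood at 810 FPKM or more in every library. ACTA1, the skeletal muscle actin, stood at 39517 FPKM in DSP and 16778 in LL, against 47397 in TP and 50812 in YY. Summed FPKM was 1450760 in DSP and 1067280 in LL, against 880279 in TP and 1226120 in YY, so the sums did not follow the sides. Sequencing depth was not given. Nuclear loci shorter than 300 bp, which were not analysed here, took 20.6% and 17.7% of the FPKM in DSP and LL, against 1.39% and 5.55% in TP and YY. Entries of the Y chromosome summed to 40.5 and 63.0 FPKM in DSP and LL, against 144 in TP and 0.288 in YY, which does not follow the sides either.

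**Figure D1:**
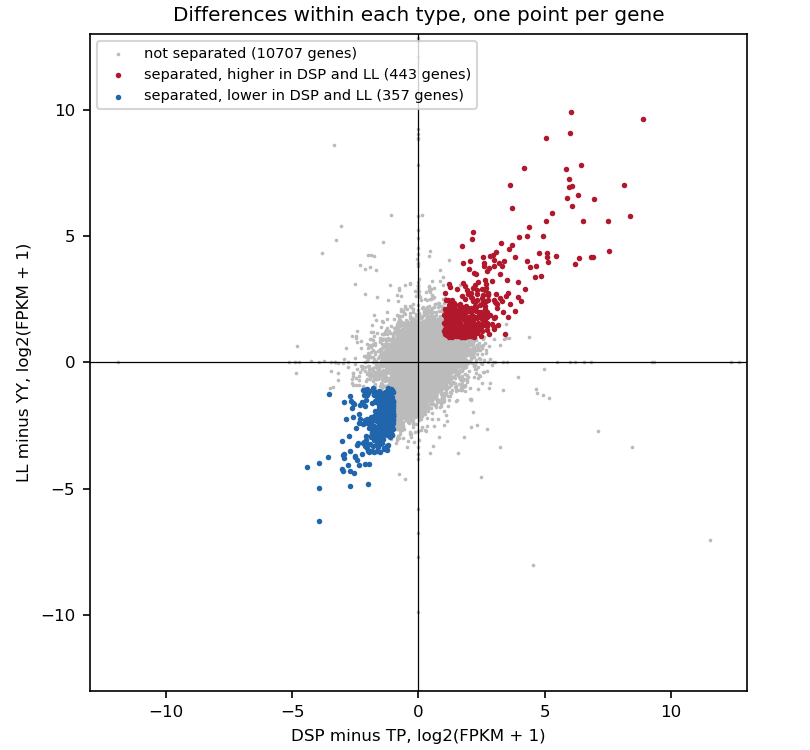
Each point is 1 of the 11507 genes analysed, with DSP minus TP on the x axis and LL minus YY on the y axis, both as differences of log2(FPKM + 1). The 443 red genes were separated and higher in DSP and LL, the 357 blue genes were separated and lower, and grey genes were not separated.

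By definition a separated gene differs at least 2-fold on FPKM + 1 in the same direction within both types. The sign and least size of the medians within types were therefore fixed for the separated genes. Over the 443 higher genes the median of DSP minus TP was 1.89 and that of LL minus YY was 1.72. Over the 357 lower genes the medians were −1.44 and −2.25, so the lower genes stood further apart in the introduced pair. Over all genes analysed the median side difference was 0.11, with 0.21 for DSP minus TP and 0.01 for LL minus YY. Within a side, the median absolute difference was 0.31 between DSP and LL and 0.48 between TP and YY. The higher genes had a median of 23.6 FPKM in DSP and 23.2 in LL, against 5.14 in TP and 4.96 in YY. The lower genes had a median of 10.1 FPKM in DSP and 7.77 in LL, against 29.1 in TP and 45.6 in YY.

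The balance of the directions depended on the scaling of the libraries. Of the separated genes, 55.4% were higher in DSP and LL on the deposited values. After rescaling to a common median ratio the share was 42.4%, with 374 higher and 509 lower. After setting the summed level of all but the 50 most abundant genes equal it was 40.9%. Under the median ratio, 366 of the 443 higher genes and 356 of the 357 lower genes were separated as before, and the median over all genes was 0.01.

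Among named genes with a wide gap, some entries stood at a very high level. HSBP1, which binds and restrains heat shock factor, had 42015 FPKM in DSP and 38159 in LL, against 147 in TP and 290 in YY. It alone took 2.90% and 3.58% of all FPKM in DSP and LL, against 0.0167% and 0.0237% in TP and YY. Its side difference was 7.59, and its entry spans 948 bp on an unplaced scaffold.

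IGF2 had 682 FPKM in DSP and 781 in LL, against 9.03 in TP and 9.66 in YY. The sides averaged 732 ± 70.17 FPKM and 9.35 ± 0.443 FPKM (SD, n = 2 libraries each). The 2 libraries of a side were thus close to each other while the sides lay 70.7-fold apart on FPKM + 1. Both types showed the same gap, with DSP minus TP at 6.09 and LL minus YY at 6.20. The entry spans 2416 bp on an unplaced scaffold.

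Other members of the IGF axis divided. IGF2R, the receptor that clears IGF2, had 25.5 FPKM in DSP and 24.5 in LL, against 7.29 in TP and 11.1 in YY. INSR, the insulin receptor, had 26.8 and 28.9 FPKM in DSP and LL, against 7.77 in TP and 11.7 in YY. A second INSR entry on the same chromosome, named here after its values were seen, had 17.0 and 19.5 FPKM in DSP and LL, against 3.25 in TP and 4.19 in YY. IGFBP6, a binding protein that prefers IGF2, went the other way, with 3.23 FPKM in DSP and 2.06 in LL, against 24.5 in TP and 12.9 in YY. IGFBP7, a secreted binding protein of vessels and matrix, had 47.1 and 59.3 FPKM in DSP and LL, against 139 in TP and 61.7 in YY, so that LL lay next to YY. Of 13 analysed members 3 (23.1%) were separated higher and 1 (7.69%) lower, against 3.85% and 3.1% over all genes. The list's median of 0.03 was close to the 0.11 of all genes. It was 0.46 without TP and −0.14 at a minimum of 5 FPKM.

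**Figure D2:**
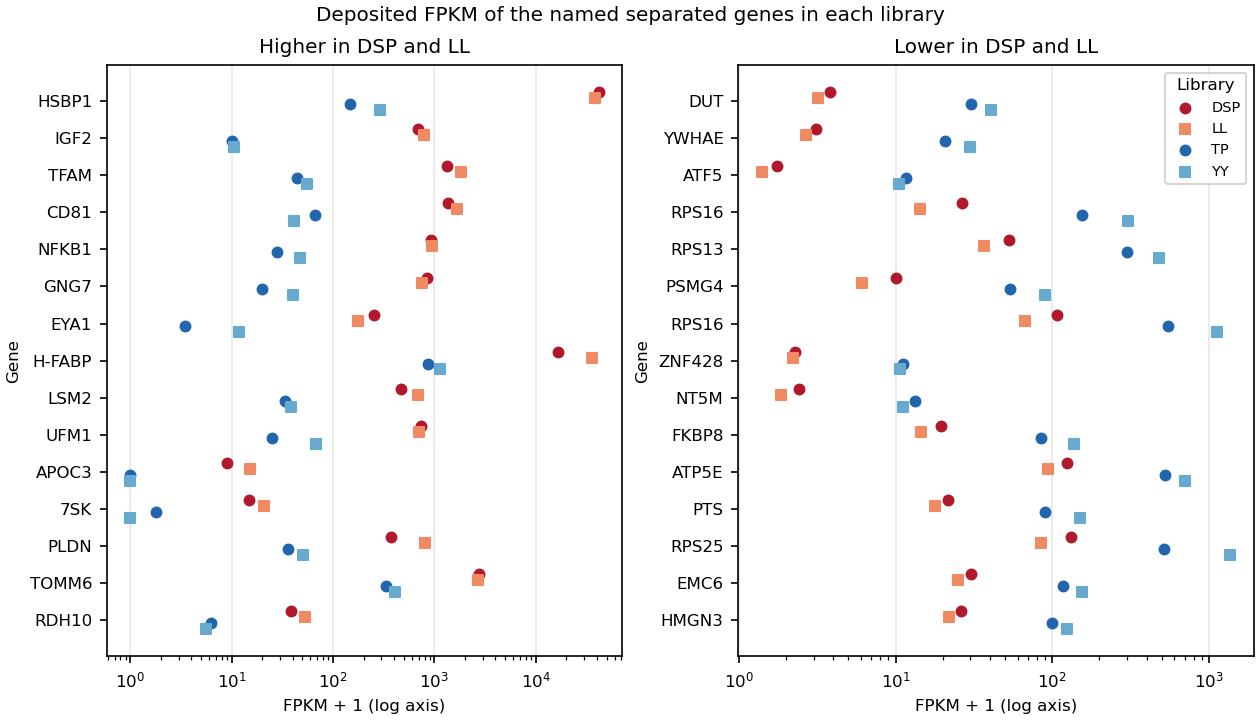
Deposited FPKM + 1, on a log axis, of the named genes with the widest gap between the sides, 15 higher in DSP and LL on the left and 15 lower on the right. Each point is 1 library, and in every row both red points (DSP and LL) lie on the same side of both blue points (TP and YY).

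H-FABP had 16676 FPKM in DSP and 36228 in LL, against 860 in TP and 1145 in YY. The side averages were 26452 ± 13825 FPKM and 1002 ± 201 FPKM (SD, n = 2 libraries each), and the side difference was 4.63. LL was the highest library and TP the lowest. The rest of the fatty acid uptake list moved less. CD36, the membrane transporter of fatty acids, had 233 FPKM in DSP and 342 in LL, against 186 in TP and 150 in YY. SLC27A1, a fatty acid transport protein, had 27.8 and 19.5 FPKM in DSP and LL, against 12.6 in TP and 9.44 in YY. DBI, which binds acyl-CoA, ran the other way with 18.6 and 9.40 FPKM in DSP and LL, against 39.0 in TP and 25.4 in YY. Of 11 analysed members 6 (54.5%) were higher and 3 (27.3%) lower without overlap, against 31.7% and 21.7% over all genes. The list's median of 0.57 was 0.18 without YY.

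TFAM, GABPA and TOMM6 were separated higher. TFAM, which packages and transcribes mitochondrial DNA, had 1344 FPKM in DSP and 1811 in LL, against 43.3 in TP and 55.0 in YY. GABPA, a transcription factor of nuclear genes for mitochondria, had 102 and 92.0 FPKM in DSP and LL, against 11.8 in TP and 25.5 in YY. TOMM6, a small subunit of the outer membrane import pore, had 2777 and 2667 FPKM in DSP and LL, against 335 in TP and 409 in YY. These 3 genes (8.57%) are the only separated higher members among the 35 analysed of the carrier and import list, against 3.85% over all genes. In the list 14 (40.0%) were lower and 9 (25.7%) higher without overlap, against 21.7% and 31.7% over all genes. The list's median of −0.37 rested on LL and was 0.03 without that library. SLC25A4, the muscle ADP and ATP carrier and the list's most abundant member beside TOMM6, had 1361 FPKM in DSP and 572 in LL, against 873 in TP and 1859 in YY, and overlapped.

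Signalling and transcription genes among the widest gaps were CD81, NFKB1, GNG7 and EYA1. CD81, a tetraspanin of the cell surface, had 1368 FPKM in DSP and 1664 in LL, against 65.4 in TP and 39.9 in YY. NFKB1, a subunit of the NF-kappaB factor, had 929 and 953 FPKM in DSP and LL, against 26.7 in TP and 46.3 in YY. GNG7, a G protein gamma subunit, had 854 and 746 FPKM in DSP and LL, against 18.9 in TP and 39.7 in YY. EYA1, a coactivator of homeobox factors in muscle development, had 255 FPKM in DSP and 174 in LL, against 2.47 in TP and 10.8 in YY. The sides did not overlap in any of the 4, and EYA1 had the widest relative spread within a side, between TP and YY.

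The remaining named higher genes were LSM2, UFM1, PLDN, RDH10, APOC3 and 7SK. LSM2, of the RNA-binding Sm-like ring, had 467 and 695 FPKM in DSP and LL, against 32.6 in TP and 37.6 in YY. UFM1, a ubiquitin-like modifier, had 731 and 712 FPKM in DSP and LL, against 24.1 in TP and 66.3 in YY. PLDN, a protein of vesicle sorting, had 370 and 814 FPKM in DSP and LL, against 34.8 in TP and 49.96 in YY. RDH10, an enzyme of retinoic acid synthesis, was lower in level but as clearly divided, with 37.4 and 51.7 FPKM in DSP and LL, against 5.24 in TP and 4.58 in YY. 7SK, the small nuclear RNA that holds back transcription elongation, had 14.0 and 19.8 FPKM in DSP and LL, against 0.782 in TP and a listed 0 in YY. APOC3, a lipoprotein component of the liver and gut, had 7.98 FPKM in DSP and 14.1 in LL and is listed at 0 in TP and YY. Of 25 genes for plasma proteins of the liver, a list written after these values were seen, 18 did not overlap and were higher in DSP and LL. In the list 1 gene was lower without overlap. Without the filter on level, 4983 of 18039 genes were higher and 3223 lower without overlap. Because the list was written from these values, its counts describe the libraries and support no inference. Only 10 of the 25 reached the analysis minimum. Some of the 18 lie near 0, such as APOB at 0.0373 and 0.0393 FPKM in DSP and LL. The list summed to 60.1 and 117 FPKM in DSP and LL, against 40.2 in TP and 23.2 in YY. The part of these genes in the other differences was not tested.

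Genes with an ID only made up more of the higher set than of the lower set or of all genes. They were 246 of the 443 higher genes (55.5%) and 72 of the 357 lower genes (20.2%), while 2176 of all 11507 (18.9%) had an ID only. ENSSSCG00000025032 had 78.6 FPKM in DSP and 98.3 in LL, and ENSSSCG00000024760 had 65.5 and 126, with both listed at 0 in TP and YY. Genes on unplaced scaffolds were separated higher in 94 of 990 (9.49%), against 349 of 10517 (3.32%) on placed chromosomes. The shares separated lower were 2.42% on scaffolds and 3.17% on placed chromosomes. Genes with a name still had 197 separated higher and 285 lower of 9331.

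Some named entries were short or had a partner of the same name. The TFAM entry spans 692 bp on chromosome 14 (100777165 to 100777856), the EYA1 entry 630 bp on chromosome 4 (69915805 to 69916434) and the LSM2 entry 450 bp. The NFKB1 entry spans 3191 bp and the GNG7 entry 4296 bp, against a median of 20014 bp over all genes analysed. Whether such entries hold the whole gene was not tested. YWHAE, an adaptor that binds phosphorylated proteins, had 2 entries that disagreed. The entry of 759 bp on chromosome 3 had 2.11 FPKM in DSP and 1.66 in LL, against 19.6 in TP and 29.0 in YY. The other, of 9551 bp on a scaffold, had 578 and 407 FPKM in DSP and LL, against 234 in TP and 348 in YY. TBC1D1, which links insulin to glucose transport, had an entry of 492 bp with 13.2 and 17.6 FPKM in DSP and LL, against 2.16 in TP and 4.33 in YY. Its second entry of 27468 bp, named after its values were seen, lay in the same direction, with 7.80 and 13.3 FPKM in DSP and LL, against 3.71 in TP and 3.56 in YY. Both entries of HIPK2, a nuclear kinase also named after its values were seen, were separated higher, with side differences of 2.36 and 2.71. Values of such entries are reported as deposited and may be shared with similar or overlapping sequence.

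Chromatin regulators, which modify or remodel nucleosomes, had the highest median in DSP and LL of all 51 lists apart from the 3 Y-linked genes. Of 44 analysed members, 31 (70.5%) were higher and 1 (2.27%) lower without overlap, against 31.7% and 21.7% over all genes. Among these members 5 (11.4%) were separated higher, against 3.85%. Their median of 0.66 compares with 0.11 over all genes, and both types gave like values of 0.73 for DSP minus TP and 0.66 for LL minus YY. KDM5A, a histone demethylase, had 9.58 FPKM in DSP and 8.61 in LL, against 2.60 in TP and 2.85 in YY. KMT2C, a histone methyltransferase, had 15.004 and 14.5 FPKM in DSP and LL, against 5.17 in TP and 4.19 in YY. NCOA2, a coactivator of nuclear receptors, had 6.98 and 9.20 FPKM in DSP and LL, against 2.50 in TP and 1.89 in YY. ARID1A, a subunit of the SWI/SNF remodeller, had 41.9 and 33.5 FPKM in DSP and LL, against 11.2 in TP and 15.993 in YY. In these genes DSP and LL were the 2 high libraries. SMARCD3, a muscle subunit of the same remodeller, was the exception that was lower, with 38.2 and 25.959 FPKM in DSP and LL, against 56.5 in TP and 70.6 in YY. BRD2, the most abundant member after SMARCD3, overlapped at 54.0 and 45.3 FPKM in DSP and LL, against 40.0 in TP and 46.6 in YY.

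Among 22 genes between the insulin receptor and mTOR, 12 (54.5%) did not overlap, about the 53.4% of all genes. Of these 11 were higher and 1 was lower, with a median of 0.43 that was 0.18 without DSP and 0.22 without TP. IRS1, the docking protein of the insulin receptor, had 96.6 FPKM in DSP and 37.1 in LL, against 27.3 in TP and 28.7 in YY. RPS6KB2, an S6 kinase, was the 1 lower member, with 7.63 and 4.57 FPKM in DSP and LL, against 11.8 in TP and 23.8 in YY. DEPTOR, an inhibitor of mTOR, had 194 FPKM in DSP and 57.5 in LL, against 65.1 in TP and 45.8 in YY, so only DSP stood out. In the fasting list FKBP5, a glucocorticoid-induced chaperone, was separated with 220 and 267 FPKM in DSP and LL, against 28.3 in TP and 92.7 in YY. PDK4, which spares glucose, had the larger difference of 2.33 but overlapped, with 692 and 546 FPKM in DSP and LL, against 21.4 in TP and 665 in YY. FBXO32, an atrophy ligase, did not overlap but was not separated, at 195 and 306 FPKM in DSP and LL, against 15.2 in TP and 158 in YY, so that TP was low and YY lay close to DSP. FOXO3A, a transcription factor of muscle wasting, was separated, at 60.9 and 67.2 FPKM in DSP and LL, against 8.86 in TP and 23.2 in YY.

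Large scaffold and membrane genes of the muscle fibre were mixed. DAG1, dystroglycan, the link from the fibre to the basement membrane, had 188 and 133 FPKM in DSP and LL, against 46.3 in TP and 61.5 in YY. TRDN, triadin of the calcium release site, had 1019 and 545 FPKM in DSP and LL, against 233 in TP and 394 in YY, and an entry named TRIADIN, chosen after its values were seen, had 2023 and 1794 FPKM in DSP and LL, against 255 in TP and 676 in YY. TCAP, the small cap of titin, ran the other way, with 924 and 611 FPKM in DSP and LL, against 1532 in TP and 4068 in YY. Over the 26 scaffold genes the median was 0.15, with 0.90 for DSP minus TP and −0.47 for LL minus YY, so the types did not share a direction. That median was −0.24 without TP and 0.88 without YY. NID1, nidogen of the basement membrane, had 21.9 and 17.7 FPKM in DSP and LL, against 14.8 in TP and 1.92 in YY. The median of 0.59 over 20 basement membrane genes rested on YY, since it was −0.28 without that library and 1.16 without TP.

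**Figure D3:**
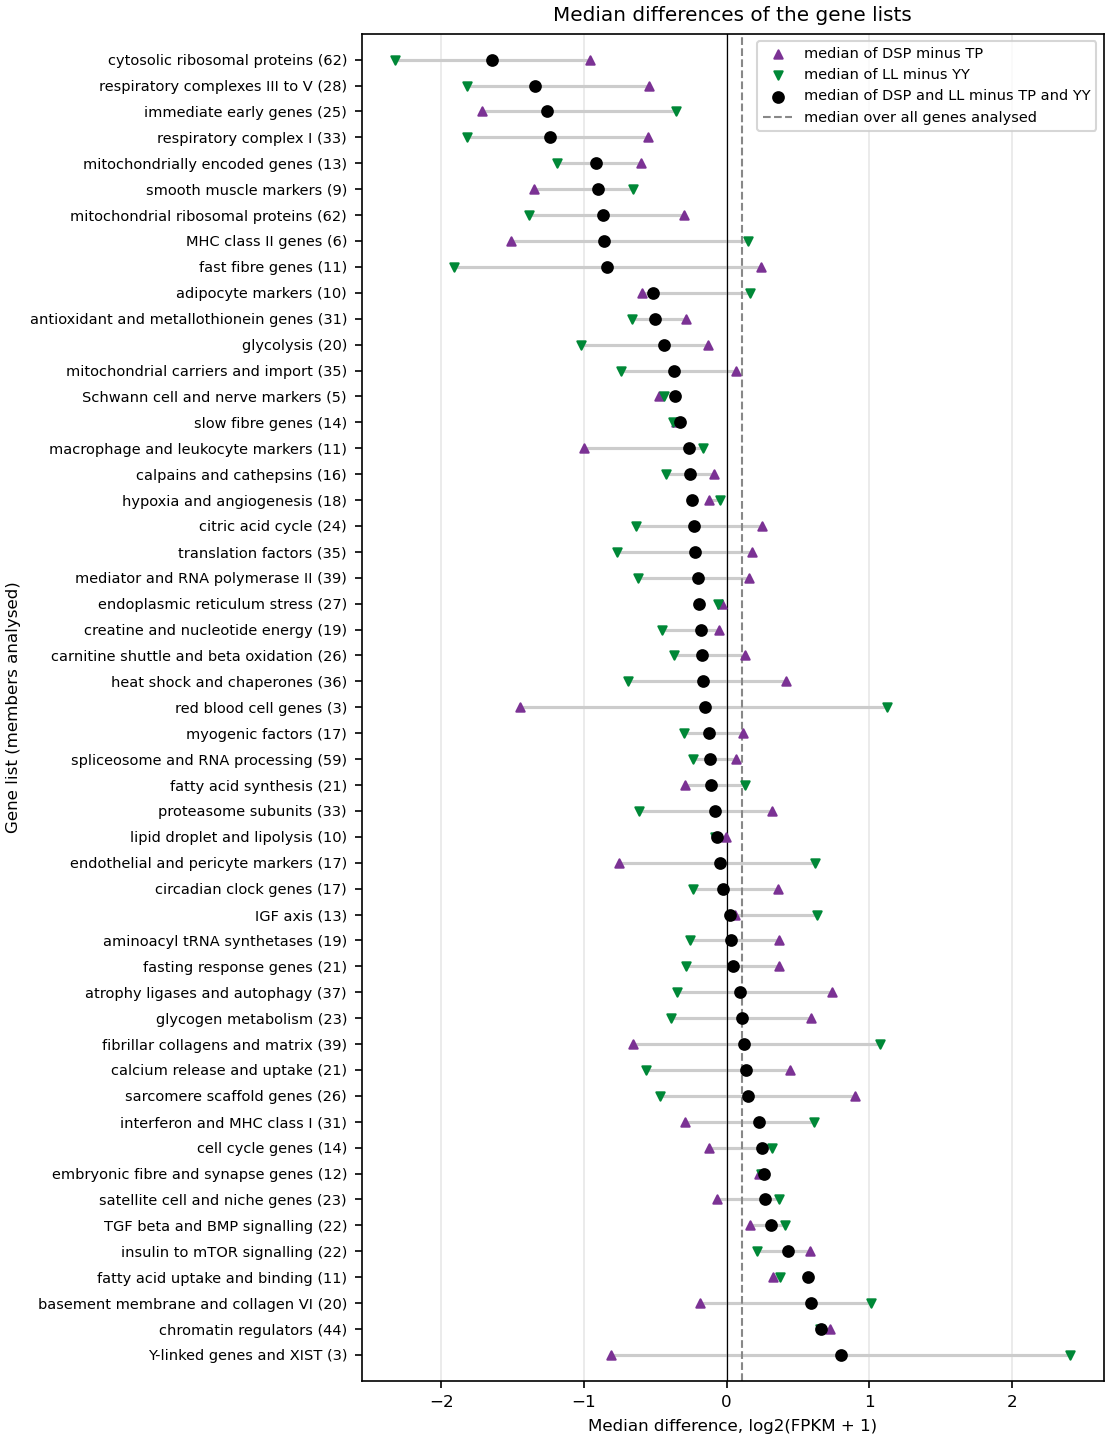
Median difference of log2(FPKM + 1) for each of the 51 gene lists, with the number of members analysed in parentheses. Black points give DSP and LL minus TP and YY, triangles the difference within each type, and the dashed line the 0.11 of all genes. Ribosomal, respiratory and immediate early genes lie lowest, and the triangles of 1 list can lie on opposite sides of 0.

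Cytosolic ribosomal protein genes were the lowest list in DSP and LL. Of 62 analysed members, 60 (96.8%) did not overlap and were lower, against 21.7% of all genes. None was higher, and 29 (46.8%) were separated lower, against 3.1%. The median was −1.65, with −0.96 for DSP minus TP and −2.32 for LL minus YY, and the members ranged over −3.20 to 0.26. The list took 1.07% and 1.10% of all FPKM in DSP and LL, against 3.42% and 4.78% in TP and YY. RPLP1, an acidic protein of the ribosomal stalk and the most abundant member, had 1224 FPKM in DSP and 901 in LL, against 2940 in TP and 6606 in YY. RPS13, of the small subunit, had 51.7 and 35.5 FPKM in DSP and LL, against 298 in TP and 476 in YY. RPS25, also of the small subunit, had 132 and 83.1 FPKM in DSP and LL, against 514 in TP and 1367 in YY. YY was the highest library and LL the lowest in each of these 3 genes. RPS16 had 2 entries that can share reads, and both were separated lower, with side differences of −3.47 and −3.20. Processed copies of ribosomal protein genes are common in mammals, so levels of single members are uncertain.

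Translation factors did not all go with the ribosome. EEF1D and EEF1B2, which recharge the elongation factor, were separated lower. EEF1D had 49.5 and 39.1 FPKM in DSP and LL, against 191 in TP and 381 in YY. EEF2, the translocation factor, overlapped at 1136 and 894 FPKM in DSP and LL, against 750 in TP and 1209 in YY. Of the 35 factors 14 (40.0%) did not overlap, fewer than the 53.4% of all genes. Lower were 11 (31.4%) and higher 3 (8.57%), against 21.7% and 31.7% over all genes. Their median of −0.22 was −0.63 without TP and 0.06 without YY, so its sign depended on 1 library.

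Nuclear genes of the respiratory chain were lower in DSP and LL. In complex I, the entry of electrons from NADH, 28 of 33 members (84.8%) did not overlap and were lower, against 21.7% of all genes. In the list 1 member (3.03%) was higher without overlap, against 31.7% of all genes. Separated lower were 13 (39.4%), against 3.1% of all genes. The list's median of −1.24 was −0.74 without LL. NDUFA1 had 31.4 FPKM in DSP and 32.2 in LL, against 130 in TP and 158 in YY. NDUFB6 had 46.2 and 31.6 FPKM in DSP and LL, against 163 in TP and 157 in YY. NDUFA11 had 18.3 and 10.7 FPKM in DSP and LL, against 57.7 in TP and 91.0 in YY. The member that was higher was NDUFS4, an assembly subunit, with 1220 FPKM in DSP and 920 in LL, against 438 in TP and 477 in YY.

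In complexes III to V, 24 of 28 members (85.7%) did not overlap and were lower, against 21.7% of all genes. Of these 7 were separated, and the median of the list was −1.35, or −0.80 without LL. ATP5E, the epsilon subunit of ATP synthase, had 123 FPKM in DSP and 92.6 in LL, against 524 in TP and 706 in YY. COX7A1, the muscle form of a cytochrome oxidase subunit, had 391 and 240 FPKM in DSP and LL, against 951 in TP and 1071 in YY. UQCR11, of complex III, had 153 and 104 FPKM in DSP and LL, against 418 in TP and 536 in YY. ATP5B, the catalytic subunit, overlapped at 864 and 518 FPKM in DSP and LL, against 829 in TP and 1123 in YY. Citric acid cycle genes had a smaller median of −0.23 over 24 members, with 0.25 for DSP minus TP and −0.63 for LL minus YY, and the median was 0.20 without LL. CS, citrate synthase, was higher, with 250 and 163 FPKM in DSP and LL, against 107 in TP and 118 in YY, and SDHB, the iron-sulphur subunit of complex II, was lower, with 126 and 63.0 FPKM in DSP and LL, against 227 in TP and 294 in YY.

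Genes of the mitochondrial genome were mostly lower too. Of its 13 protein genes, 9 (69.2%) were lower without overlap, against 21.7% of all genes. Higher without overlap were 2 (15.4%), MT-ATP8 and ND4L, against 31.7%. The list's median of −0.92 was −0.46 without LL. MT-CO1, a catalytic subunit of cytochrome oxidase, had 18626 FPKM in DSP and 11421 in LL, against 31534 in TP and 27575 in YY. MT-ND6 had 2841 and 1584 FPKM in DSP and LL, against 7686 in TP and 6142 in YY. MT-ATP8 was higher, with 194058 and 124337 FPKM in DSP and LL, against 56242 in TP and 38219 in YY, but its locus is merged with those of MT-ATP6 and MT-CO3, which were both lower. Mitochondrial ribosomal protein genes had 48 of 62 members (77.4%) lower without overlap, against 21.7% of all genes, none higher, and a median of −0.87. MRPS26 had 21.6 and 14.3 FPKM in DSP and LL, against 63.0 in TP and 101 in YY, and MRPL40 had 14.5 and 11.3 FPKM in DSP and LL, against 39.0 in TP and 76.1 in YY.

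**Figure D4:**
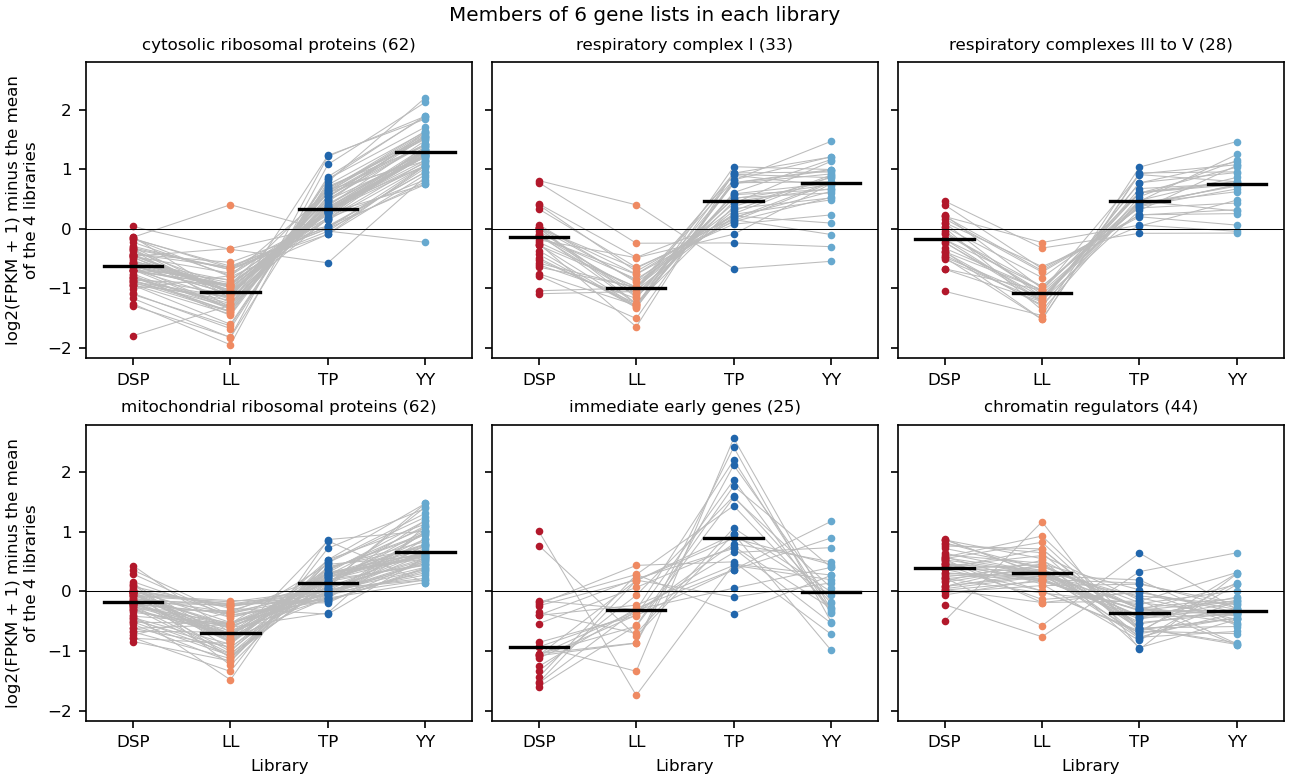
log2(FPKM + 1) of each analysed member of 6 lists in each library, minus the member's own mean over the 4 libraries, with black bars at the median. Ribosomal and respiratory members lie low in DSP and LL and high in TP and YY, chromatin regulators the reverse, and immediate early genes are highest in TP.

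Among contractile genes, light chains, a troponin and a tropomyosin were lower in DSP and LL, while the heavy chains MYH1 and MYH7 overlapped. MYL1, the fast light chain, had 7079 FPKM in DSP and 2635 in LL, against 19249 in TP and 19892 in YY. MLC-2V, the slow regulatory light chain also written MYL2, had 524 and 774 FPKM in DSP and LL, against 2666 in TP and 3161 in YY. TNNI1, the slow inhibitory troponin, had 581 and 495 FPKM in DSP and LL, against 1281 in TP and 2360 in YY. TPM3, the slow tropomyosin, had 66.8 and 104 FPKM in DSP and LL, against 350 in TP and 549 in YY. These 4 genes were low in both DSP and LL whether they belong to fast or slow fibres. MYH1, a fast myosin heavy chain named after its values were seen, had 14097 and 5708 FPKM in DSP and LL, against 7886 in TP and 9131 in YY. MYH7, the slow heavy chain and likewise named after its values were seen, had 1115 and 1807 FPKM in DSP and LL, against 810 in TP and 1391 in YY. The fast list had a median of −0.84 over 11 members, with 0.24 for DSP minus TP and −1.91 for LL minus YY, so the types pointed in opposite directions. Without LL the fast median was −0.05, without YY −0.39 and without DSP −1.47. The slow list had a median of −0.33 over 14 members, with 7 lower and 4 higher without overlap, and the median was −0.77 without LL and −0.15 without YY.

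In glycolysis, PGAM2 and GAPDH were separated lower and the other 18 members were not separated, with a median of −0.44 that was −0.06 without LL and −1.10 without DSP. PGAM2, the muscle phosphoglycerate mutase, had 1566 FPKM in DSP and 509 in LL, against 4486 in TP and 5961 in YY. GAPDH had 9876 and 4174 FPKM in DSP and LL, against 28168 in TP and 39576 in YY, at a locus shared with other entries. ENO3, the muscle enolase, had 5437 and 1769 FPKM in DSP and LL, against 9739 in TP and 14264 in YY. AK1, which balances adenine nucleotides, had 407 and 111 FPKM in DSP and LL, against 974 in TP and 1116 in YY. LL was the lowest library in all 4. SLN, sarcolipin, which slows the calcium pump, had 2548 and 1226 FPKM in DSP and LL, against 5274 in TP and 8894 in YY.

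The widest lower gaps outside these groups were in genes of mixed function. DUT, which clears dUTP, had 2.81 FPKM in DSP and 2.21 in LL, against 29.1 in TP and 39.4 in YY. ATF5, a stress transcription factor, had 0.739 and 0.396 FPKM in DSP and LL, against 10.6 in TP and 9.46 in YY. PSMG4, a proteasome assembly chaperone, had 9.03 and 5.07 FPKM in DSP and LL, against 52.7 in TP and 88.4 in YY. These genes were low in both DSP and LL, and the highest of the 4 values was in YY for DUT and PSMG4 and in TP for ATF5. FKBP8, an immunophilin of the mitochondrial outer membrane, had 18.6 and 13.6 FPKM in DSP and LL, against 83.3 in TP and 136 in YY. PTS, an enzyme of tetrahydrobiopterin synthesis, had 20.6 and 16.7 FPKM in DSP and LL, against 89.0 in TP and 149 in YY. NT5M, a mitochondrial nucleotidase, had 1.43 and 0.865 FPKM in DSP and LL, against 12.4 in TP and 10.2 in YY. EMC6, of the endoplasmic reticulum insertion complex, HMGN3, which binds nucleosomes, and ZNF428 completed the named lower genes, with side differences of −2.28, −2.22 and −2.28. GPX4, which protects membrane lipids from oxidation, had the widest difference of the antioxidant list, with 19.3 and 8.62 FPKM in DSP and LL, against 68.0 in TP and 111 in YY. Of that list's 31 members, 15 (48.4%) were lower and 5 (16.1%) higher without overlap, against 21.7% and 31.7% over all genes. The list's median was −0.50. Among genes with an ID only, ENSSSCG00000008860 had 5.92 and 4.67 FPKM in DSP and LL, against 82.2 in TP and 76.1 in YY, and ENSSSCG00000028417 is listed at 0 in DSP and LL with 7.11 FPKM in TP and 17.7 in YY.

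Immediate early genes, the transcription factors switched on within minutes of a stimulus, had 14 of 25 members lower without overlap, none higher and none separated. The 14 are 56.0% of members, near the 53.4% of all genes that did not overlap in either direction. Over all genes 21.7% were lower without overlap. The list's median of −1.26 came more from the indigenous pair, at −1.72 for DSP minus TP, than from the introduced pair, at −0.35 for LL minus YY. Without TP the median was −0.55. ATF3 had 34.3 FPKM in DSP and 25.3 in LL, against 394 in TP and 52.7 in YY. BTG2 had 45.7 and 51.9 FPKM in DSP and LL, against 513 in TP and 66.6 in YY. FOS overlapped, with 47.1 and 112 FPKM in DSP and LL, against 641 in TP and 109 in YY. TP was the high library in these 3 genes, and the list summed to 832 and 988 FPKM in DSP and LL, against 2995 in TP and 1185 in YY.

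Markers of other cell types in muscle mostly varied with single breeds more than with the sides. Those of smooth muscle and, in part, of macrophages and leukocytes were exceptions. In bulk tissue fewer cells of a type and less RNA per cell cannot be told apart. Smooth muscle markers had 4 of 9 analysed members (44.4%) lower without overlap and none higher, against 21.7% and 31.7% over all genes. Their median of −0.90 ranged over −1.32 to −0.72 across settings, with −1.35 for DSP minus TP and −0.65 for LL minus YY. TAGLN, transgelin of smooth muscle, had 10.9 FPKM in DSP and 17.2 in LL, against 89.3 in TP and 53.8 in YY. CNN1, a calponin, had 6.81 and 3.43 FPKM in DSP and LL, against 26.1 in TP and 12.6 in YY. Macrophage and leukocyte markers summed to 25.4 and 32.0 FPKM in DSP and LL, against 72.1 in TP and 29.8 in YY. C1QA, a complement subunit made by macrophages, had 1.62 and 1.71 FPKM in DSP and LL, against 15.1 in TP and 3.84 in YY. Endothelial and pericyte markers summed to 206 and 237 FPKM in DSP and LL, against 305 in TP and 130 in YY. Red blood cell genes summed to 158 and 171 FPKM, against 530 in TP and 81.6 in YY, so DSP and LL lay between TP and YY in both lists. Adipocyte markers had 2 of 10 members (20.0%) higher and 2 (20.0%) lower without overlap, against 31.7% and 21.7% over all genes. Their median of −0.52 was −0.18 without TP and −0.95 without YY. PLIN1, the droplet coat of adipocytes, had 1.80 and 1.38 FPKM in DSP and LL, against 11.5 in TP and 1.01 in YY. No marker of these lists other than TAGLN, EGFL7 and AQP7 was separated. EGFL7, secreted by endothelium, had 3.09 and 2.43 FPKM in DSP and LL, against 15.2 in TP and 15.6 in YY, and AQP7, the glycerol channel of adipocytes, had 7.04 and 7.79 FPKM in DSP and LL, against 2.24 in TP and 2.88 in YY. Their part in the other differences was not tested.

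Symbols that share a prefix formed 64 families of at least 15 members, of which 44 had a median above 0 and 20 below. Of the 51 lists, 18 had a median above 0 and 33 below, so the balance of families and lists differed. The lowest families share members with the ribosomal and respiratory lists and add no separate view of them. The lowest were RPL at −1.55, RPS at −1.50, COX at −1.34, MRPS at −0.87 and MRPL at −0.86. The highest were SNORA at 1.41, KLHL at 0.55, KDM, CEP and SEC at 0.51 each. The SNORA entries, small nucleolar RNAs that guide RNA modification, pointed both ways. Of 27 entries 4 (14.8%) were separated higher and 3 (11.1%) lower, against 3.85% and 3.1% over all genes. Only 29.6% did not overlap, against 53.4% of all genes. The family's median was 0 within both types, and its median level was 0 FPKM in DSP, LL and YY. All 27 lie at loci shared with other entries, so their median span of 19758 bp is not their own length. SNORA58 had 467 and 781 FPKM in DSP and LL and is listed at 0 in TP and YY, at a locus merged with another gene. KLHL31, a muscle adaptor for ubiquitin ligases, had 613 and 370 FPKM in DSP and LL, against 195 in TP and 128 in YY. In the SEC family the median was above 0 although SEC61G, a small subunit of the protein channel into the endoplasmic reticulum, was separated lower, with 16.03 and 17.0 FPKM in DSP and LL, against 63.5 in TP and 96.0 in YY.

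**Figure D5:**
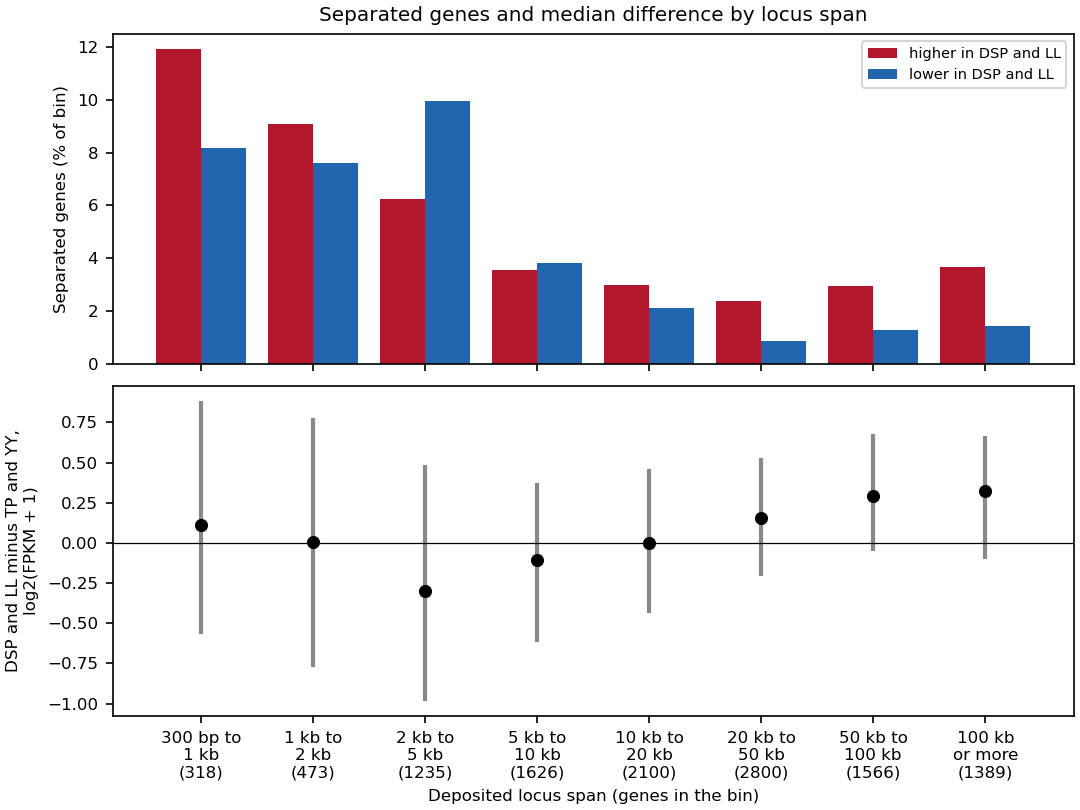
Upper panel: share of the genes in each bin of deposited locus span that were separated, higher in DSP and LL in red and lower in blue. Lower panel: median side difference of log2(FPKM + 1) per bin with the span from the first to the third quartile. Separated genes are most frequent below 5000 bp, and the median is 0.11 at 300 to 1000 bp and rises from −0.30 at 2000 to 5000 bp to 0.32 at 100000 bp or more.

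The size of the locus, which the pairing did not use beyond the minimum, differed between the directions, but not evenly from short to long. Separated lower genes had a median span of 4765 bp and separated higher genes 11187 bp, against 20014 bp over all genes analysed. Higher genes with a name had 17625 bp and higher genes with an ID only 7167 bp. Among 318 genes of 300 to 1000 bp, 8.18% were separated lower and 11.9% higher, with a median side difference of 0.11. Among 473 genes of 1000 to 2000 bp the shares were 7.61% lower and 9.09% higher, with a median of 0.01. Among 1235 genes of 2000 to 5000 bp, 9.96% were separated lower and 6.23% higher, and the median side difference was −0.30. Among 1389 genes of 100000 bp or more, 1.44% were separated lower and 3.67% higher, and the median was 0.32. In that longest class 41.4% of genes did not overlap and were higher, against 12.6% lower. The ribosomal list had a median span of 4060 bp and the chromatin list 89060 bp. Span includes introns and, where loci were merged, neighbouring genes, and transcript length was not analysed here.

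By level, the count of genes without overlap and the count of separated genes pointed different ways among the most abundant genes. Of 96 genes with a mean of 1000 FPKM or more, 40.6% did not overlap and were lower and 19.8% were higher, with a median side difference of −0.50. In the same class 9.38% were separated lower and 13.5% higher, and a gap of 4-fold was reached by 10 higher and 0 lower genes. Of 1613 genes between 1 and 2 FPKM, 15.5% were lower and 29.7% higher, with a median of 0.15. The separated higher genes took 23.4% and 24.9% of all FPKM in DSP and LL, against 7.23% and 3.92% in TP and YY. A large part of these shares in every library was the single entry MT-ATP8, whose locus is merged with those of genes that were lower. It had 194058 and 124337 FPKM in DSP and LL, against 56242 in TP and 38219 in YY. The separated lower genes took 2.93% and 2.30% in DSP and LL, against 13.2% and 13.3% in TP and YY.

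At the edges of the definitions, NDUFB4 was the last gene inside the lower set, with 88.4 and 66.5 FPKM in DSP and LL, against 178 in TP and 292 in YY. CHID1 was the first outside, with 4.74 and 3.68 FPKM in DSP and LL, against 10.5 in TP and 17.0 in YY. The last higher gene inside, with an ID only, had 16.1 and 9.19 FPKM in DSP and LL, against 4.09 in TP and 1.52 in YY, and the first outside had 5.50 and 6.39 FPKM in DSP and LL, against 2.25 in TP and 1.34 in YY. SGSH at a mean of 1.00073 FPKM was analysed and SNX30 at 0.999644 FPKM was not. An entry of 300 bp was analysed, while a 7SK entry of 299 bp and a MITF entry of 297 bp, at 41.3 and 59.7 FPKM in DSP and LL, against 7.26 in TP and 15.9 in YY, were not.

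The comparison that the labels imply, indigenous against introduced, was tested with limma on all 11507 genes. The mean difference between the types is computed apart from that between the sides. The spread within a type, however, holds the side differences on which the pairing was chosen. The p-values are therefore not independent of the pairing. Its unadjusted p was under 0.05 in 133 genes, which is 1.16%, and 1 gene (0.00869%) passed after Benjamini-Hochberg adjustment. That gene, ENSSSCG00000026870, is listed at 0 in DSP and TP, with 3436 FPKM in LL and 419 in YY, at a locus shared with other entries. Its difference of indigenous minus introduced was −10.23 (SE 0.95, limma adjusted p = 0.0471). No gene passed without a trend, with a pseudocount of 5, without a filter, without a minimum span or after any of the 3 rescalings. The smallest limma adjusted p was 0.162 without a trend and 0.164 with a pseudocount of 5. It was 0.199 to 0.563 after the rescalings, with 0.563 after the median ratio. With the side as a term, 115 genes passed and 525 had an unadjusted p under 0.05. That term was chosen from the values and takes the side difference out of the spread, so the 115 support nothing. None of the 800 separated genes reached an unadjusted limma p under 0.05 between the types. For IGF2, indigenous minus introduced was −0.14 (SE 2.25, limma adjusted p = 0.9999), and for H-FABP it was −0.77 (SE 1.95, limma adjusted p = 0.9999). The spread within a type holds the side difference itself, so the SE of a separated gene is large by construction. These p-values measure only the spread between single libraries of different breeds. Over the higher genes the median of indigenous minus introduced was −0.05 and over the lower genes −0.07, against −0.02 over all genes.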

How the data were processed

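Total RNA of frozen muscle was made into Illumina libraries and aligned with TopHat, per the labels' protocols and, for the aligner, the submitters' processing notes. The TopHat version, the build, the program behind the expression values and any use of strand were not given in the sources used here. FPKM for each of the 4 breeds were deposited by the authors in 1 table with gene positions and without counts, so depth and counting error are unknown. Other deposited sheets were not used here.

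Of 18208 genes, 12322 had a name in the table, 1638 took 1 from reference tables by gene ID and 4248 kept an ID only. In all, 2253 entries share an identical locus, and their reads could be split between them. Sides were compared on log2(FPKM + 1) by side means, by the gap between the nearest libraries and by library values. The indigenous and introduced types were tested in limma 3.58.1 with a trended prior variance, under R 4.3.3 and with a threshold of 0.05 after Benjamini-Hochberg adjustment. Python 3.11.15, numpy 2.4.6, pandas 2.3.3 and matplotlib 3.10.9 did the rest. Both steps were tested on simulated data.

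The members, the 51 gene lists (1275 of 1511 symbols found, 1193 analysed) and the tests were chosen with earlier results of these data known. Genes were named by a rule: the 15 widest gaps per direction among named genes that average 5 FPKM or more and hold a locus of their own, at most 2 with an ID only, the 2 most abundant and 4 most different members of a list, up to 3 members of a symbol family, IGF2 and H-FABP. Genes outside it are marked in the text. Protein length and promoter sequence were not used here, and some genes that the rule names are not reported here.

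Settings varied were the pseudocount (0.1 or 5), the filter (none or 5 FPKM), 3 rescalings, no minimum span or 1000 bp, a gap of 4-fold, entries of 1 symbol summed, limma without a trend, with a robust prior or with the side as a term, and leaving out each library.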

Additional observations from a re-analysis of the deposited data

Results flagged for a closer look

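HBB, a globin of red blood cells, differed in opposite directions within the types, by −1.45 for DSP minus TP and by 1.14 for LL minus YY on log2(FPKM + 1), and with 1 library per breed this contrast was not tested. USP9Y, a Y-linked gene, did the same, by −1.21 for DSP minus TP and 2.47 for LL minus YY, also not tested. Nuclear loci shorter than 300 bp, outside the genes analysed, took 20.6% of the FPKM in DSP and 17.7% in LL, against 1.39% in TP and 5.55% in YY.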

How the results depend on the processing

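No count or depth came with the FPKM, so counting error is unknown, and each side held 2 libraries of different breeds. No paired analysis was possible from the design because the labels give no replicate numbers, and the side as a term pairs the libraries only by their measured values. The median over all genes stayed above 0 in every setting. Genes not overlapping were 3994 at a minimum of 5 FPKM, which tests fewer genes, and 8045 to 9462 with 1 library left out, where a side has a single library. Separated genes were 99 higher and 37 lower at a gap of 4-fold and 212 and 209 with a pseudocount of 5, both stricter by construction. They numbered 718 to 1006 higher and 457 to 1086 lower with 1 library left out (718 and 874 without DSP, 893 and 457 without LL, 946 and 1086 without TP, 1006 and 654 without YY), and 553 were lower after rescaling without the 50 most abundant genes, for which the cause was not tested. For the types, limma passed 115 genes with the side as a term, 4 at a minimum of 5 FPKM, 3 with a pseudocount of 0.1, 2 with a robust prior and 1 to 15 with 1 library left out, where the lone library of a type is assumed to vary like the others. It passed 0 without a trend, with a pseudocount of 5, without a filter, without a minimum span and after each of the 3 rescalings, against 1 as reported, so the call rests on the settings. Of the 51 list medians, 30 changed sign in at least 1 setting and 28 with 1 library left out. In 26 of the 30 the reported median was under 0.5 in size, and in the other 4 it was larger: MHC class II genes were 0.048 without TP, Y-linked genes −0.36 without YY, basement membrane genes −0.28 without YY and adipocyte markers 0.16 at a minimum of 5 FPKM. With 1 library left out these ranged over −1.56 to 0.048 for MHC class II, −0.36 to 1.96 for Y-linked and −0.28 to 1.16 for basement membrane genes. The cause was not tested. Of 713 list medians under alternatives, 50 had the opposite sign, so the direction of a list with a small median rests on single libraries or settings.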

Other observations

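Plasma protein genes of the liver, a list written after its values were seen, were low in level but lay mostly higher in DSP and LL. Of 25 genes, 10 reached the analysis minimum. ALB, APOC3, HP and TTR reached it only through DSP and LL, and FGB and FGG only through LL. No median is given for that reason. ALB, serum albumin, had 6.55 FPKM in DSP and 21.6 in LL, against 0.0565 in TP and 0.231 in YY. HP, haptoglobin, had 5.30 FPKM in DSP and 19.1 in LL, against 1.62 in TP and 1.55 in YY. FGB, a fibrinogen chain, had 1.29 FPKM in DSP and 10.6 in LL, against 0.159 in TP and 0.125 in YY, and TTR, transthyretin, had 2.06 and 2.27 FPKM in DSP and LL and is listed at 0 in TP and YY. LL was the highest library in these genes, and 9 genes of the list are at 0 in both TP and YY. APOA1, the main protein of high density lipoprotein, ran the other way, with 3.57 and 4.53 FPKM in DSP and LL, against 10.3 in TP and 4.94 in YY. A second APOA1 entry, named after its values were seen, was separated lower with a side difference of −2.40. ITIH4, an inhibitor heavy chain, was level, with 17.3 and 16.8 FPKM in DSP and LL, against 19.1 in TP and 13.1 in YY.

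Among interferon genes, IRG6 and MX1 were highest in LL. IRG6, an antiviral protein also called viperin, had 7.57 FPKM in DSP and 36.8 in LL, against 1.61 in TP and 0.563 in YY, and MX1, another antiviral effector, had 4.24 and 12.2 FPKM in DSP and LL, against 2.44 in TP and 1.19 in YY. SLA-1, a class I antigen-presenting molecule, lay the other way, with 36.2 and 40.0 FPKM in DSP and LL, against 102 in TP and 114 in YY. Of the 31 analysed members 12 (38.7%) were higher and 9 (29.0%) lower without overlap, against 31.7% and 21.7% over all genes. The median of 0.22 was −0.46 at a minimum of 5 FPKM, −0.04 without YY and 0.56 without TP, so its sign depended on the setting.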
